A study of Canis lupus familiaris with 27 samples.

Results

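Within canine mammary carcinomas of histological grade III, tumors from dogs whose lymph nodes were affected at resection were compared with tumors from dogs whose lymph nodes were not. The tumors were chosen by the grade in the sample labels, which gives 16 of the 27 tumors of the series, 7 metastatic and 9 non-metastatic. Each tumor came from a different dog by its labels and was hybridized singly to an Affymetrix Canine Genome 2.0 array, so that the spread between tumors is the spread between dogs. All 16 were simple carcinomas of invasive growth, negative for estrogen receptor alpha by their labels. HER-2 was positive in 6 of 7 metastatic and 9 of 9 non-metastatic tumors. The affected node was inguinal in all 7 metastatic cases. Survival of these dogs after surgery was 5 to 8 months in the 5 for which it is given, whereas the labels give more than 24 months for all 9 dogs of the other group. By the design text, lung metastases nevertheless appeared in the dog of non-metastatic tumor 8. The study places them 8 months after surgery and gives this dog's survival as more than 8 months, unlike its label. A further non-metastatic tumor is of grade II by its label and of grade III in the study's clinical table, and it was kept out of the grade III groups.

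Grade in this system combines tubule formation, nuclear pleomorphism and mitotic counts, so that grade III tumors are those with the most disordered and most actively dividing cells. A comparison within grade therefore asks which genes differ with lymph node status among tumors that pathologists already scored alike. Carcinoma cells that leave the mammary gland through lymph vessels often settle first in the nodes that drain it, in dogs as in women.

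The groups differed in more than lymph node status. Metastatic tumors measured 1 to 5 cm with a median of 3 cm, and non-metastatic tumors 3 to 15 cm with a median of 4 cm (means 2.57 ± 1.40, SD, n = 7, and 6.11 ± 3.98, SD, n = 9; exact permutation test, two-sided, p = 0.0241, adjusted over 6 measures p = 0.0724). The dogs were 9 to 15 years old in both groups, with means of 11.0 and 11.8 years. The study selected non-metastatic tumors for a larger diameter. The upper quartile of an array, a measure of how much of the array is bright, was 7.88 to 8.00 in metastatic and 7.52 to 7.89 in non-metastatic tumors (exact permutation test, adjusted p = 0.00210). The 3′ minus 5′ difference of the GAPDH control probe sets, a sign of RNA quality, was 1.88 ± 0.32 and 1.39 ± 0.49 on the log2 scale (SD, n = 7 and 9, exact permutation test, adjusted p = 0.0857). That of the actin control probe sets went the other way, with 1.09 ± 0.39 and 1.27 ± 0.59 (SD, exact permutation test, adjusted p = 0.513). The 2 controls thus went in different directions. Whether RNA quality had a part in the differences given below was not tested. Names of 6 of the 7 metastatic samples end in the letter T, as do 0 of the 9 non-metastatic ones, and whether the letter marks a batch is not given in the sources used here. Handling behind that letter and lymph node status cannot be told apart in 6 of 7 metastatic tumors.

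A pair of arrays that crosses the groups stood apart by its likeness. Metastatic tumor 1 and non-metastatic tumor 3 differed by more than 4-fold in 223 of 42860 probe sets, against a median of 2582.5 over the 120 pairs of grade III tumors and 514 in the next most alike pair. Their correlation over probe sets was 0.991 and the next highest 0.985. Their labels name different breeds, ages and tumor sizes. Metastatic tumor 1 is also the only metastatic sample of grade III whose name does not end in T. Counts without either or both of these tumors are given beside the results.

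Of the epithelial genes, EPCAM was bright in every tumor. EPCAM, the surface adhesion molecule of carcinoma cells, was at log2 values of 12.48 to 14.30 in metastatic and 11.56 to 14.37 in non-metastatic tumors, and the ranges overlapped almost entirely. The mean of 12 measured epithelial genes was lowest, at 5.90, in non-metastatic tumor 8, where the mean of all genes was 5.72. The epithelial mean lay between 7.96 and 11.10 in the metastatic group. The tissue was macrodissected to a high share of carcinoma cells but remained bulk tissue, in which fewer cells of a type and less RNA per cell cannot be told apart.

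With 1 probe set for each of 15115 genes, 215 genes differed between the groups at an adjusted p under 0.05 (limma, Benjamini-Hochberg adjustment over all genes), which is 1.42% of those tested. Of these, 122 (0.807%) rose in metastatic carcinomas and 93 (0.615%) fell. At an unadjusted p under 0.05 there were 1711 higher genes (11.3%) and 1512 lower genes (10%). No overlap between the 7 and the 9 values was seen for 34 higher genes (0.225%) and 133 lower genes (0.88%), together 1.1% of all genes. With the stricter pair of limits used in the original analysis (adjusted p under 0.001 with at least a 1.7-fold change, over all probe sets), 0 probe sets passed, while 1127 probe sets had an adjusted p under 0.05 from limma. The split between directions moved with scaling, from 122 higher and 93 lower genes to 31 and 74 when the arrays were quantile-normalized again and to 197 and 98 when each was centred on its median.

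The number of calls rested on single tumors. It was 54, 153, 578, 50, 220, 71, 92, 518 and 105 without non-metastatic tumors 1 to 9 in turn, and 327, 44, 59, 79, 129, 15 and 20 without metastatic tumors 1 to 7. Without both metastatic tumor 1 and non-metastatic tumor 3 it was 482, and 206 of the 215 genes were among them. In every one of the 16 fits that leave out a tumor, 11 of the 215 genes were called, 5 higher and 6 lower. With tumor size as a covariate 0 genes were called (limma, smallest adjusted p = 0.0672, with 1728 genes at an unadjusted p under 0.05). The 215 genes kept their sign and an unadjusted p under 0.05. They were chosen for small p in these same tumors, so this is no independent check. Their median ratio to the difference without size was 0.906. That ratio was 0.785 when the arrays' upper quartile was the covariate, where 0 genes were called and 949 higher and 797 lower genes had an unadjusted p under 0.05. It was 0.932 with the GAPDH difference, where 0 genes were called and 1192 higher and 1407 lower genes had an unadjusted p under 0.05 (limma).

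**Figure D1:**
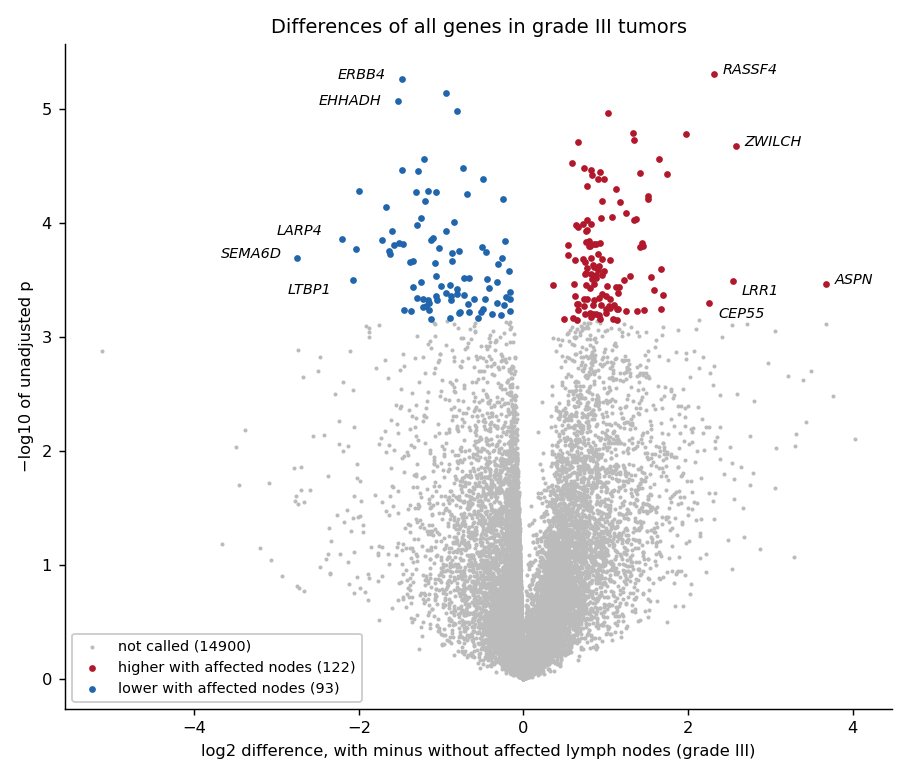
Each point is a gene, placed by its log2 difference between grade III tumors with and without affected lymph nodes (x axis) and by the −log10 of its unadjusted p from limma (y axis). The 122 genes called higher and 93 called lower at an adjusted p under 0.05 are coloured, and all of them lie in the upper part of a cloud with many uncalled genes of larger difference on either side.

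The plot of differences against p shows that size and call were not the same thing, since genes with wide spread between tumors differed by more than 3 on the log2 scale without being called. The 12 largest differences among the called genes in each direction are described next. The median of all log2 values on the arrays was 3.66, and probe sets at or below it are dim. Most non-metastatic tumors lay below it for ASPN, ZWILCH, LRR1 and TMEM181 and, further on, for ESPL1, LIN54 and MARCO. Fold changes from those levels are uncertain.

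ASPN, which encodes asporin, a small proteoglycan of the connective tissue matrix, showed the largest increase among the called genes. Its log2 values were 6.99, 7.82 and 9.39 (lowest, median and highest) in metastatic tumors and 2.40, 3.63 and 8.20 in non-metastatic tumors. Only non-metastatic tumor 8 reached into the metastatic range. The mean difference was 3.67 (SE 0.80), a 12.7-fold higher level, with an adjusted p of 0.0406 from limma.

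ZWILCH, a subunit of the kinetochore complex that recruits dynein and serves the spindle checkpoint, rose by 2.58 (SE 0.42, adjusted p = 0.0242, limma). Values ran from 4.42 to 8.08 with a median of 6.30 in metastatic tumors and from 3.05 to 4.41 with a median of 3.55 in the others. The groups touched without overlapping, with metastatic tumor 5 and non-metastatic tumor 3 next to each other. CEP55, which acts in the final separation of daughter cells, rose by 2.26 (SE 0.51, adjusted p = 0.0457), from 3.52 to 6.08 in non-metastatic tumors to 4.91 to 8.91 in metastatic tumors, and here the ranges overlapped. LRR1, a substrate adaptor of a cullin ubiquitin ligase, rose by 2.54 (SE 0.55, adjusted p = 0.0395). In LRR1, 7 of the 9 non-metastatic values lay between 2.92 and 3.47, and non-metastatic tumors 3 and 5 stood above them at 5.20 and 5.61.

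RASSF4, a Ras association domain protein, had the smallest p of all genes. Its values were 6.21, 6.71 and 7.62 in metastatic and 3.23, 4.78 and 5.48 in non-metastatic tumors, with a gap between the groups and a difference of 2.31 (SE 0.33, adjusted p = 0.0242, limma). GPN2, a GTPase needed to assemble RNA polymerase II, rose by 1.97, and UBXN2A, a cofactor of the segregase p97, by 1.75. Both had groups that did not overlap. SMARCAL1, an annealing helicase of stalled replication forks, rose by 1.68, although its value in metastatic tumor 1 was 3.63, within the non-metastatic range of 3.29 to 4.74. The tRNA methyltransferase gene TRMT10A rose by 1.67 and ABHD5, a coactivator of lipolysis, by 1.59. TMEM181, a transmembrane protein, rose 3.24-fold. EIF2AK2, the kinase PKR that is activated by double-stranded RNA, rose by 1.65 (SE 0.28, adjusted p = 0.0242, limma), with values of 4.57 to 6.03 against 2.99 to 4.72.

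SEMA6D, a transmembrane semaphorin known from axon guidance, fell most among the called genes. Its values were 3.49, 5.19 and 7.23 in metastatic and 6.05, 8.01 and 9.66 in non-metastatic tumors, a difference of −2.75 (SE 0.56, adjusted p = 0.0343, limma) or 6.73-fold. The lowest values of each group belonged to metastatic tumor 1 and non-metastatic tumor 3. LTBP1, which binds latent TGF-beta to the matrix, fell by 2.08 on the log2 scale. In this gene 6 metastatic tumors lay between 4.22 and 6.17, below all non-metastatic values, and metastatic tumor 1 lay at 8.47 among them.

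ERBB4, a receptor of the epidermal growth factor family that binds neuregulins and takes part in mammary differentiation, fell by 1.47 on the log2 scale (SE 0.21, adjusted p = 0.0242, limma), a 2.78-fold lower level. Values were 8.60, 8.82 and 9.62 in metastatic and 9.84, 10.20 and 11.18 in non-metastatic tumors. The groups did not overlap. The 4 other probe sets of the gene had differences of only −0.08 to −0.04. EHHADH, an enzyme of peroxisomal fatty acid oxidation, fell by 1.52 (SE 0.23, adjusted p = 0.0242), again without overlap. TRIM58, a ubiquitin ligase known from red cell formation, RSPH9, part of the radial spoke of motile cilia, and TCAF1, a regulator of an ion channel, fell by 2.03, 1.67 and 1.60 with groups apart. ZWILCH, RASSF4, EHHADH and ERBB4 were called in all 16 fits that leave out a tumor, with adjusted p of at most 0.0468. The other called genes named here lost the call in 1 to 14 of those fits.

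Among the remaining large decreases were LARP4, an RNA-binding protein of poly(A) tails, with −2.21, and LATS1, the kinase of the Hippo pathway that restrains the transcriptional coactivator YAP1, with −1.99 (SE 0.36, adjusted p = 0.0253, limma). LATS1 values were 4.11 to 6.32 against 5.84 to 7.68, and metastatic tumor 1 had the value of 6.32. Its other probe set differed by 0.77 in the opposite direction (limma, unadjusted p = 0.0104), and that of LARP4 by 0.51 (limma, unadjusted p = 0.102). DTNA, a component of the dystrophin complex, fell by 1.72, DYNC2H1, the dynein heavy chain of transport in cilia, by 1.63, and the RNA-binding protein EWSR1 by 1.57. LTB, which encodes lymphotoxin beta, fell by 1.62 on its brightest probe set, while the other rose in value by 1.09 (unadjusted p = 0.0138). Over all 215 genes, 158 had 300 other probe sets, of which 85.3% had the same sign, against 72.1% over all genes with several probe sets. The 215 genes were chosen for their differences on these same arrays, so the higher agreement is no independent check.

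**Figure D2:**
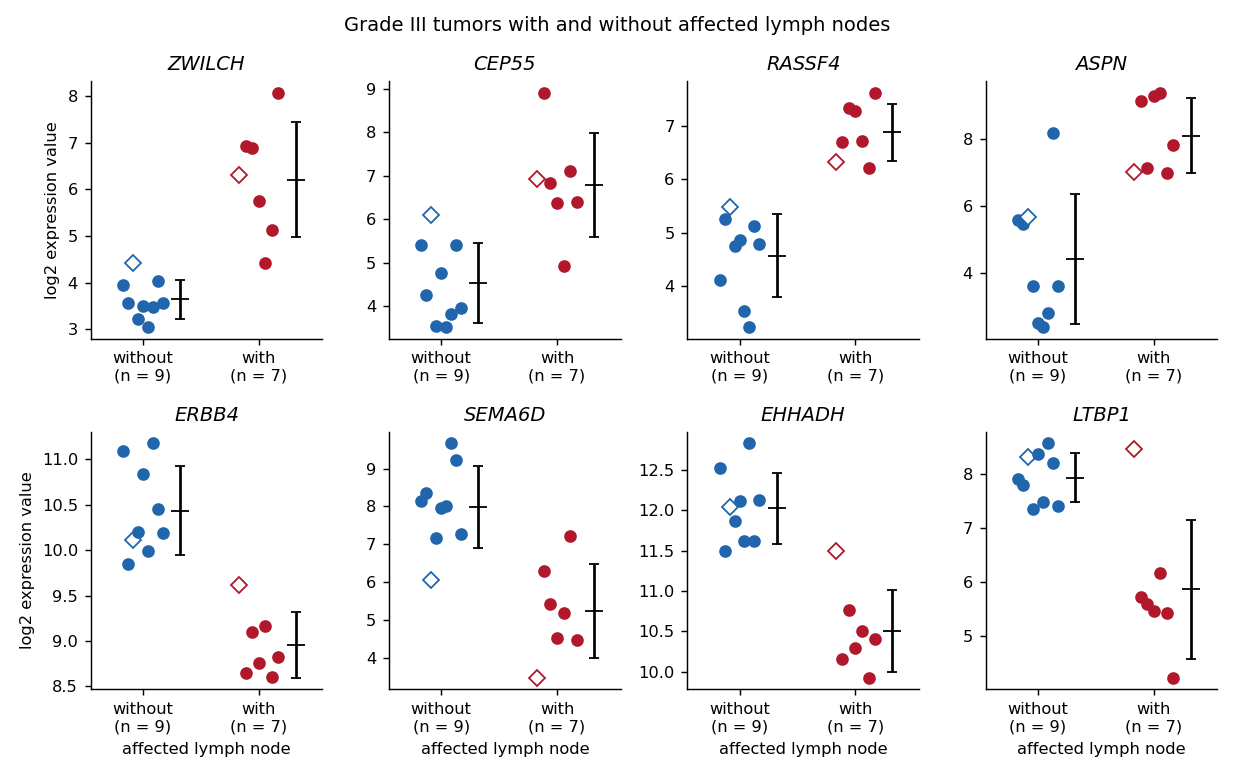
Log2 expression values of 8 genes in each grade III tumor without (blue, n = 9) and with (red, n = 7) affected lymph nodes, with the mean and SD as a black mark. Open diamonds are non-metastatic tumor 3 and metastatic tumor 1, the most alike pair of arrays, and the groups are apart in ZWILCH, RASSF4, ERBB4 and EHHADH.

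The plot of single tumors shows where metastatic tumor 1 left its group. It stood with the other metastatic tumors for ZWILCH, CEP55 and RASSF4, lay at the top of the metastatic range for ERBB4 and EHHADH, and sat among the non-metastatic tumors for LTBP1. Names that do not end in T leave this 1 metastatic tumor against the 9 non-metastatic tumors, which gives values of a single tumor and no test of the groups. Among them LTBP1 differed by 0.53 and SMARCAL1 by −0.26, the opposite of the sign in all tumors.

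Genes of cell division were higher in metastatic grade III tumors as groups, though most of their members did not pass the adjusted test. Mitosis and spindle genes had a positive difference in 46 of 51 cases, against 48.4% of all genes, and the median was 1.64 against −0.01 over all genes. An unadjusted p under 0.05 was reached by 32 higher genes (62.7% of the list, against 11.3% of all genes) and 1 lower gene. ZWILCH and CEP55 were called, 2 of 51, against 0.807% of all genes called higher. Over all genes 0.615% were called lower, and calls in the lists below stand beside these shares. The mean level of the list was 5.50 to 8.65 in metastatic and 4.29 to 7.13 in non-metastatic tumors. Metastatic tumor 5 had the lowest metastatic level, below the levels of 6 non-metastatic tumors, while non-metastatic tumors 3 and 8 had the highest of their group at 7.13 and 7.03. AURKA, the kinase of the spindle poles, differed by 1.74 (SE 0.68, adjusted p = 0.166), with values of 6.13 to 10.17 against 4.63 to 8.69. The separase ESPL1 differed by 1.98 (adjusted p = 0.0597) and the kinesin KIF18A by 1.00 (adjusted p = 0.0512).

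Genes of DNA replication had a median difference of 0.76, with 47 of 49 positive. At an unadjusted p under 0.05, 23 were higher (46.9%, against 11.3% of all genes) and 0 lower. Of the 49, 3 were called higher, against 0.807% of all genes. RPA1 and RPA2, subunits of the protein that coats single-stranded DNA, rose by 0.91 and 1.41, and RRM1, which makes deoxyribonucleotides as part of ribonucleotide reductase, by 1.14. RPA2 values were 8.21, 9.06 and 10.06 in metastatic and 6.91, 7.44 and 8.46 in non-metastatic tumors, which overlapped at the edge. Of the 2 other probe sets of RPA1, 1 had the opposite sign, with a difference of −0.15 (unadjusted p = 0.0124). ORC2, a subunit of the origin recognition complex, had groups that did not overlap, 6.09 to 7.49 against 3.59 to 5.84, but an adjusted p of 0.0515. The median of 40 cyclins, kinases and their inhibitors was 0.56, with LIN54, a DNA-binding subunit of the complex that represses or activates cell cycle genes, called at 1.12. LIN54 lay at 3.34 to 3.63 in every non-metastatic tumor and at 3.53 to 5.67 in the metastatic ones. Cyclin E1 (CCNE1) differed by 1.45 with an adjusted p of 0.0639. With size as a covariate the medians of these lists were 1.53, 0.75 and 0.37.

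Genes of protein production and turnover differed by smaller amounts. In the proteasome list 26 of 29 genes were positive with a median of 0.36, and the core subunits PSMA1 and PSMB3 rose by 0.77 and 0.73. In protein folding 34 of 38 were positive with a median of 0.29. CDC37, which brings kinases to HSP90, rose by 0.79 and the mitochondrial co-chaperone DNAJA3 by 1.06. Mitochondrial ribosomal proteins had 41 of 44 positive values and a median of 0.48, and MRPL30 rose by 0.75 without overlap between the groups. At an unadjusted p under 0.05 these lists had 14, 14 and 16 higher genes (48.3%, 36.8% and 36.4%, against 11.3% of all genes) and 0 lower genes each. With the upper quartile as covariate the medians of the proteasome, folding and mitochondrial ribosome lists were 0.21, 0.18 and 0.21, and after quantile normalization 0.21, 0.17 and 0.30. Cytosolic ribosomal proteins stood on the other side, with 29 of 42 negative and a median of −0.13. At an unadjusted p under 0.05, 9 were lower (21.4%, against 10% of all genes) and 1 higher. However, the median was 0.07 for metastatic tumor 1 alone against the non-metastatic tumors and 0.00068 with the GAPDH difference as covariate. It was −0.09 without non-metastatic tumor 2 and −0.21 without non-metastatic tumor 8. RPS27 fell by 0.77 on the log2 scale, from a median of 14.00 to 13.10.

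Enzymes of cholesterol synthesis had 18 of 19 positive values, a median of 0.56 and 0 called genes. At an unadjusted p under 0.05, 9 were higher (47.4%, against 11.3% of all genes) and 0 lower. The median of this list was 0.17 for metastatic tumor 1 alone against the non-metastatic tumors. SQLE, the squalene epoxidase of that pathway, differed by 2.53 (SE 0.60, adjusted p = 0.0511), with values of 9.56 to 13.06 against 6.59 to 10.57. Splicing factors were split by sign, with 27 of 53 positive and a median of 0.08, which was −0.11 after quantile normalization. At an unadjusted p under 0.05, 12 were lower (22.6%, against 10% of all genes) and 8 higher (15.1%, against 11.3%). HNRNPC and LSM3 rose by 0.54 and 0.83, and SNRNP70 and DDX17 had differences of −0.85 and −0.59 with adjusted p of 0.0507 and 0.0512. In the apoptosis list BNIP2 rose by 1.35 (adjusted p = 0.0306, limma), and the median was 0.33.

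Receptor tyrosine kinases included more lower than higher genes, with 9 lower (20.5%, against 10% of all genes) and 5 higher (11.4%, against 11.3%) of 44 at an unadjusted p under 0.05 and a median of −0.14 (−0.05 and −0.08 without non-metastatic tumors 5 and 7), and ERBB4 was the single called member. NTRK2, a neurotrophin receptor, had values of 8.49, 9.25 and 10.61 in metastatic and 8.15, 12.54 and 13.50 in non-metastatic tumors, a difference of −2.50 (SE 0.67, adjusted p = 0.0630, limma). The non-metastatic value of 8.15 belonged to tumor 8, and the other 8 lay at 11.07 or above. The Eph receptor EPHB1 differed by −1.69 (adjusted p = 0.0597) and TEK, the receptor of angiopoietins, by −1.08 (adjusted p = 0.0525). FLT1, a receptor of vascular endothelial growth factor, was 2.82-fold higher in value (adjusted p = 0.104). In the TGF-beta and BMP pathway the members went different ways around a median of 0.10, which lay between 0.01 (without metastatic tumor 6) and 0.20 (without non-metastatic tumor 8) when 1 tumor was left out. LTBP1 fell, TGFBR3, a coreceptor, differed by −2.06 (adjusted p = 0.0994) and the ligand TGFB3 by −0.98, whereas the ligands BMP6 and BMP7 differed by 2.07 (adjusted p = 0.0588) and 3.44 (adjusted p = 0.0961). BMP7 ranged from 2.84 to 12.29 among metastatic tumors, and metastatic tumors 1 and 3 lay within the non-metastatic range of 2.73 to 4.62.

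ERBB4, BMP6, TGFBR3 and AURKA belong to the genes that the study measured by qPCR. Of those described here, ERBB4 alone was called on the arrays in grade III. ALOX12, a lipoxygenase, differed by −1.01 (adjusted p = 0.0782), IGF2R, the receptor that clears insulin-like growth factor 2, by −0.72 (adjusted p = 0.255), and HEPACAM2, which belongs to the immunoglobulin-like adhesion proteins, by −2.13 (SE 1.19, adjusted p = 0.309). HEPACAM2 ranged from 2.92 to 10.78 among non-metastatic tumors, wider than the difference between groups. In the Hippo list LATS1 was the only called gene. YAP1 differed by −1.30 (adjusted p = 0.134) and MOB1A, the cofactor of LATS kinases, by 0.63 (adjusted p = 0.0515), and the list median was 0.14 (0.00, −0.04 and 0.03 without metastatic tumors 2, 4 and 5, and −0.04 and 0.09 without non-metastatic tumors 5 and 7).

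**Figure D3:**
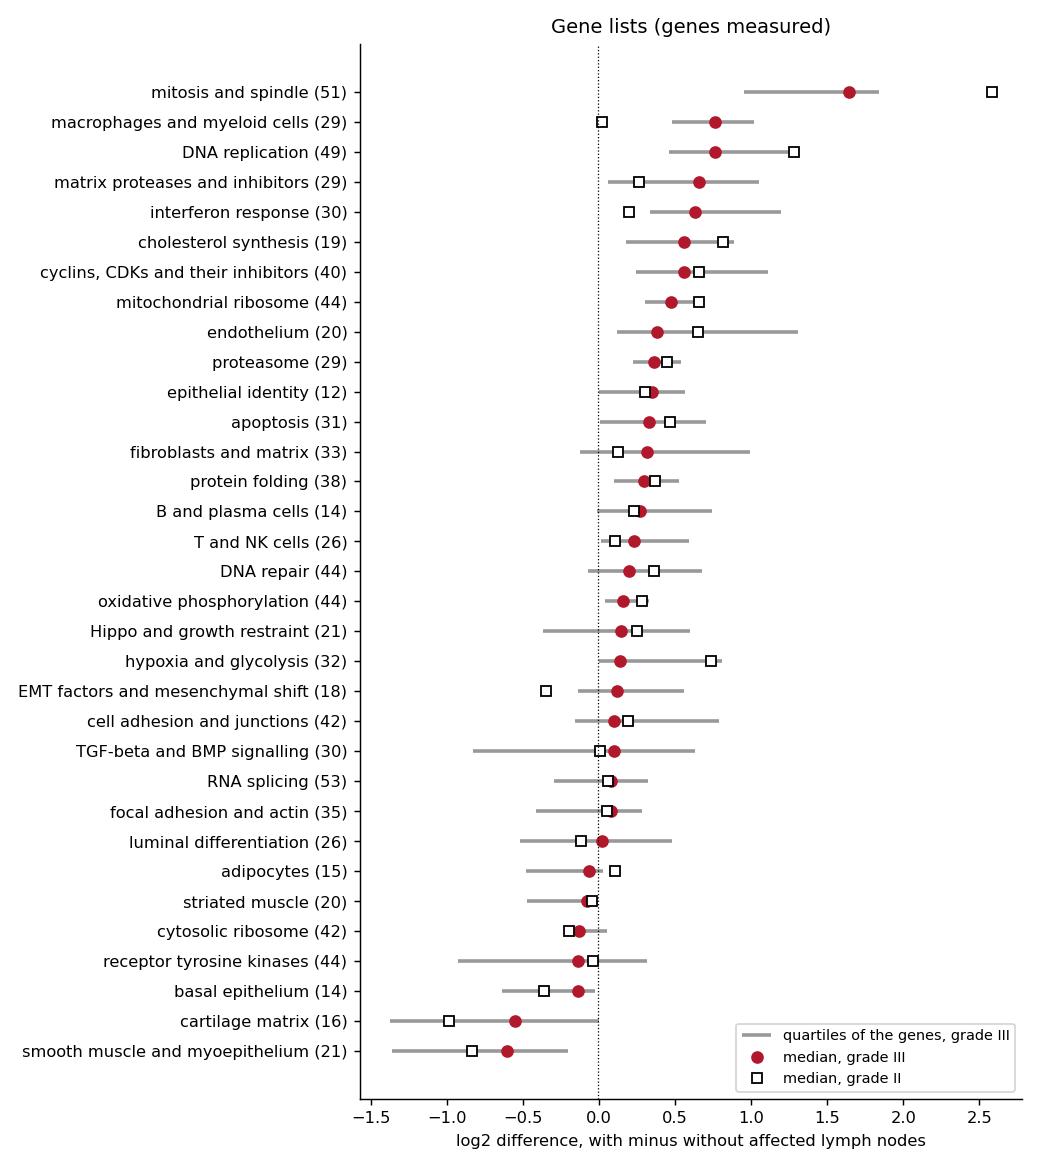
Median log2 difference of each gene list, other than the qPCR genes, between tumors with and without affected lymph nodes in grade III (red circles, grey bars from the lower to the upper quartile of its genes) and in grade II (open squares), with the number of genes measured in brackets and the median of all genes in grade III as a dotted line. Mitosis and spindle genes lie farthest to the right in both grades, of these lists smooth muscle genes lie farthest to the left in grade III, and the macrophage list shows the widest gap between the grades on the side of grade III.

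Lists of other cell types moved as well, and their part in the differences above was not tested. Contractile genes of smooth muscle and myoepithelium had 19 of 21 negative differences and a median of −0.60 (−0.94 without non-metastatic tumor 8). At an unadjusted p under 0.05, 6 were lower (28.6%, against 10% of all genes) and 0 higher. The mean level was 7.10 to 8.72 in metastatic and 7.15 to 9.90 in non-metastatic tumors, where non-metastatic tumor 8 had the 7.15 and the other 8 lay between 8.50 and 9.90. MYH11, smooth muscle myosin, differed by −3.38 (adjusted p = 0.103), the actin ACTG2 by −2.75 (adjusted p = 0.0587) and the kinase MYLK by −2.19 (adjusted p = 0.0685). Genes of cartilage matrix had a median of −0.55, which was −0.12 with size as a covariate, −0.35 and −0.84 without metastatic tumors 3 and 7 and −0.27 and −0.34 without non-metastatic tumors 3 and 8. SOX6, a transcription factor of chondrocytes, fell by 1.36 (adjusted p = 0.0466, limma), the collagen genes COL2A1 and COL10A1 differed by −3.45 and −1.49, and COMP differed by 2.44, none of the last 3 called. SOX6 differed by 0.01 on its other probe set. Luminal and basal epithelial lists had medians of 0.02 and −0.14 with 0 called genes, and the luminal median turned to −0.13 after quantile normalization. With the upper quartile as covariate the luminal median was −1.35, and that of the 12 epithelial genes was −1.03 in place of 0.35. Without non-metastatic tumor 8 these medians were −0.27 and −0.17, and single tumors left out elsewhere moved them up to 0.33 (metastatic tumor 2) and 0.71 (metastatic tumor 7).

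Fibroblast and matrix genes had a median of 0.31 with 6 higher (18.2%, against 11.3% of all genes) and 3 lower (9.09%, against 10%) of 33 at an unadjusted p under 0.05, and ASPN was the only called member. The median was 0.06, 0.19 and 0.49 without metastatic tumors 4, 5 and 6, and 0.20, 0.13 and 0.60 without non-metastatic tumors 5, 6 and 8. THBS2, a thrombospondin, differed by 3.05 (adjusted p = 0.163) and the collagen hydroxylase P4HA3 by 2.18 (adjusted p = 0.0597). Endothelial genes had 15 of 20 positive differences and a median of 0.38 (0.24 and 0.61 without metastatic tumors 2 and 3). At an unadjusted p under 0.05, 6 were higher (30%, against 11.3% of all genes) and 1 lower (5%, against 10%). The examples ICAM2 and PLVAP, from the higher side, were 3.26-fold and 3.03-fold higher in value with adjusted p of 0.0779 and 0.0862. The endothelial median was −0.02 for metastatic tumor 1 against the non-metastatic tumors. In the protease list the median was 0.66, which was 0.20 with the upper quartile as covariate. TFPI2, an inhibitor of serine proteases, differed by 2.13 (adjusted p = 0.0501) and MMP11, a stromal metalloproteinase, by 3.76 (adjusted p = 0.0779), with metastatic values from 3.01 to 11.08.

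Macrophage and myeloid genes had a positive difference in 28 of 29 cases and a median of 0.76 (0.40 without metastatic tumor 4), with 4 higher and 0 lower genes at an unadjusted p under 0.05 (13.8%, against 11.3% of all genes) and 0 called. The mean level was 7.74 to 9.74 in metastatic and 6.76 to 8.98 in non-metastatic tumors, so that the groups overlapped over most of their range. TREM1, a receptor of neutrophils and monocytes, differed by 2.05 (adjusted p = 0.104), lysozyme (LYZ) by 1.14 and AIF1 by 1.26. The scavenger receptor MARCO was at 3.01 to 3.29 in all non-metastatic tumors and at 3.10 to 8.77 in metastatic tumors. Interferon response genes had 27 of 30 positive values and a median of 0.63, and EIF2AK2 was called. At an unadjusted p under 0.05, 8 genes of this list were higher (26.7%, against 11.3% of all genes) and 0 lower. The mean level of the interferon list was 8.36 to 9.40 in 6 metastatic tumors and 7.55 in metastatic tumor 1, against 6.71 to 8.32 in the others. For metastatic tumor 1 alone against the non-metastatic tumors the median of the list was −0.38, while that of mitosis and spindle genes was 2.06. The exonuclease ISG20 differed by 3.21 (SE 0.87, adjusted p = 0.0654), with the sensor IFIH1 and the regulator IRF7 at 1.19 and 1.33. Lymphocyte genes were spread widely in both groups, with medians of 0.23 for T and NK cells and 0.27 for B and plasma cells and 0 called genes. The T and NK cell median was 0.38 and −0.03 without metastatic tumors 1 and 3 and 0.55 without non-metastatic tumor 8, and that of B and plasma cells was 0.02 without metastatic tumor 4. CD3D ranged from 6.53 to 11.20 and from 2.13 to 11.47. JCHAIN, the joining chain of secreted antibodies, differed by 2.31 (adjusted p = 0.0619).

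**Figure D4:**
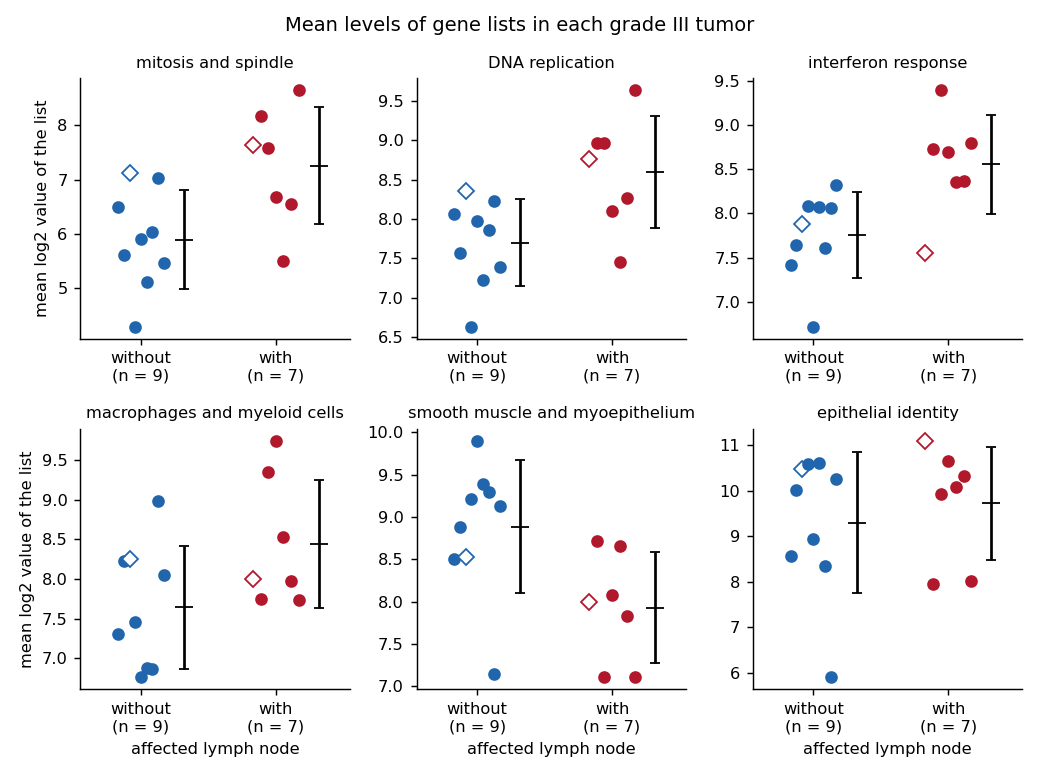
Mean log2 value of 6 gene lists in each grade III tumor without (blue, n = 9) and with (red, n = 7) affected lymph nodes, with the mean and SD of each group as a black mark and the most alike pair of arrays as open diamonds. The ranges of the groups overlap in all 6 lists, and in the interferon list metastatic tumor 1 alone lies inside the non-metastatic range of 6.71 to 8.32.

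The same comparison was made in grade II, with 6 metastatic and 5 non-metastatic tumors and no tumor in common with grade III. Non-metastatic tumor 2 of each grade nevertheless gave the most alike pair of arrays of the series, with a correlation of 0.993 and 118 probe sets differing by more than 4-fold. Sample names ending in T were again found only among metastatic tumors, in all of grade II but metastatic tumor 1. Handling behind that letter could therefore be shared by the comparisons in both grades, and its part in their likeness was not tested. In grade II 255 genes were called (1.69%), and 17.2% of all genes had an unadjusted p under 0.05. That number was 404, 15, 65, 133, 528 and 69 without metastatic tumors 1 to 6 of grade II in turn, and 25, 66, 19, 7 and 172 without non-metastatic tumors 1 to 5. Of the 122 genes that rose in grade III, 118 had the same sign in grade II, 74 of them (60.7%) with an unadjusted p under 0.05 there, against 11.1% of all genes, and 14 were also called. Of the 93 genes that fell, 92 had the same sign and 50 (53.8%) an unadjusted p under 0.05, against 6.04% of all genes, with 10 also called. The same sign was seen in 75.3% of all genes. The 24 genes called in both grades are 11.2% of the calls in grade III and 9.41% of those in grade II. The median difference of the 122 genes was 0.92 in grade III and 0.77 in grade II, and that of the 93 genes −0.94 and −0.64, values that are larger in the grade in which the genes were chosen.

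**Figure D5:**
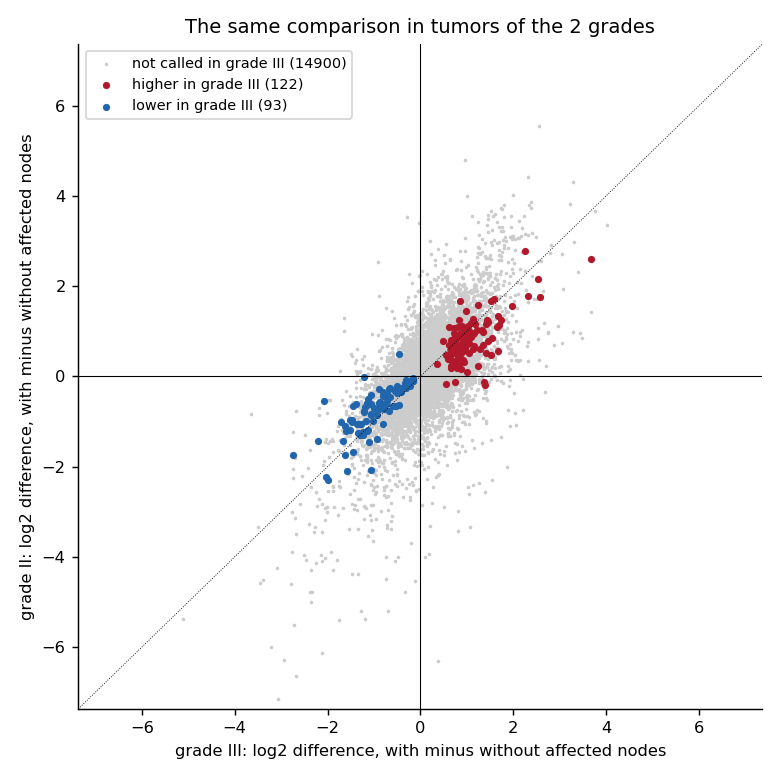
Log2 difference between tumors with and without affected lymph nodes in grade III (x axis, 7 against 9) and grade II (y axis, 6 against 5) for 15115 genes, with the dotted line marking equal differences. Of the coloured genes called in grade III, 118 of 122 higher genes and 92 of 93 lower genes keep their sign in grade II, and the correlation over all genes, which are not independent, is 0.66.

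In the plot of the grades against each other the called genes fell in the same quadrants in both grades, with 5 exceptions. A difference between the grades was tested directly as an interaction over all 27 tumors. It called 0 genes (limma, adjusted p), and 402 genes (2.66%) had an unadjusted p under 0.05. No gene was therefore called as differing between the grades. By the labels, metastatic dogs of grade II tended to be older than its non-metastatic dogs, whereas both groups of grade III covered the same ages. Age was not a covariate of the interaction. Its part in the differences between the grades given here and below was not tested. ASPN differed by 3.67 in grade III and 2.61 in grade II, RASSF4 by 2.31 and 1.78, ERBB4 by −1.47 and −1.01, and SEMA6D by −2.75 and −1.74. LTBP1 differed by −2.08 and −0.54, and SMARCAL1 by 1.68 and 0.56, with unadjusted interaction p from limma of 0.0833 and 0.0719.

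Among the lists, mitosis and spindle genes had a median of 2.58 in grade II against 1.64 in grade III, and DNA replication genes 1.28 against 0.76, with 1 and 2 genes at an unadjusted interaction p under 0.05. Hypoxia and glycolysis genes had a median of 0.74 in grade II and 0.14 in grade III (0.28 without metastatic tumor 7, and 0.09 and 0.07 without non-metastatic tumors 1 and 4). SLC16A3, a lactate exporter, differed by 5.56 in grade II and by 2.55 in grade III (interaction unadjusted p = 0.0339). Macrophage genes went the other way, with 0.02 in grade II and 0.76 in grade III, and interferon genes with 0.20 and 0.63. In these 2 lists 2 of 29 and 1 of 30 genes had an unadjusted interaction p under 0.05, against 2.66% of all genes. HEPACAM2 differed by −6.13 in grade II and by −2.13 in grade III (interaction unadjusted p = 0.0242). RIN2, an exchange factor of RAB5, had the smallest interaction p of all genes in either direction, with 0.50 in grade III and −0.96 in grade II (unadjusted p = 0.000319). On the other side the collagen cross-linking enzyme LOXL2 differed by 0.23 and 2.72, the kinase MARK1 by 0.22 and 1.35 and glucose-6-phosphate isomerase (GPI) by 0.01 and 0.75.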

How the data were processed

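RNA of each tumor was hybridized to 1 array, and the authors obtained the deposited log2 values in Partek Genomic Suite with background correction, quantile normalization and median polish. Such normalization forces arrays towards a common distribution, so that differences are relative to it. The 175 control probe sets among 43035 were dropped, and the brightest probe set over 27 tumors was kept for each of 15115 gene symbols of the platform annotation (29254 probe sets with 1 symbol, 439 with several and 13167 with none). Group differences were fitted in R 4.3.3 by limma 3.58.1 (lmFit, eBayes, Benjamini-Hochberg adjustment), grades by an interaction over 27 tumors, and single values per tumor by exact permutation. Scripts were tested on simulated data. Figures used Python 3.11.15 and matplotlib 3.10.9. The tumors and gene lists were chosen with earlier results of these data known. Named genes were the 12 largest called differences in each direction, the members of each list with smallest p (up to 4 in its main direction and 2 in the other), the qPCR genes, and the 6 smallest interaction p in each direction.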

Additional observations from a re-analysis of the deposited data

Results flagged for a closer look

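Single tumors stood apart from their group, with a gap to the next tumor above Dixon's critical value, in 25 of 204 groups of values tested, where chance flags about 1 in 20. Non-metastatic tumor 8, whose dog later developed lung metastases, was lowest of its group for MYH11 (6.33), NTRK2 (8.15) and RPS27 (13.30) and highest for ESPL1 (4.00), MOB1A (11.24), NNT (11.67) and HSPD1 (13.87). Metastatic tumor 1 was lowest for SMARCAL1 (3.63) and highest for LATS1 (6.32), EWSR1 (11.05) and TEK (4.82), and non-metastatic tumor 3, the array most like it, was highest for TMEM181 (5.01), BMP6 (6.31) and ISG20 (8.96). Non-metastatic tumor 7 was lowest for GPN2 (3.04) and RIN2 (6.34) and had the largest diameter at 15 cm. Non-metastatic tumor 9 was lowest for TRMT10A (3.96) and highest for P4HA3 (5.69), and non-metastatic tumor 5 highest for IGF2R (13.86). Among metastatic tumors, tumor 5 was highest for EPYC (4.28) and MARK1 (7.77), tumor 7 for COL2A1 (8.98) and tumor 3 for HNRNPC (12.67), and tumor 2 was lowest for SNRNP70 (10.01).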

How the results depend on the processing

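Against 215 genes called in grade III, alternatives gave 105 after quantile normalization again, 451 with dim probe sets left out, 610 with the probe set of largest variance, 338 with adjustment over all probe sets, 143 without empirical Bayes, 86 with trend and robust estimation, 1067 with array weights, 543 with the spread of 27 tumors, 44 with the ending of the name as a block, 75 within names not ending in T, 665 with the tumor that the study's table gives as grade III, 518 without the tumor followed by lung metastases, and 482 without the most alike pair, the last chosen after seeing the data. With size, size and age, and, chosen after seeing the data, the upper quartile or the GAPDH difference as covariates, the count was 0 (limma). Leaving out 1 tumor gave 15 to 578. The fits on name endings rest on 1 metastatic tumor and test no groups. The causes were not tested. Probe sets past the study's thresholds numbered 0, but 2 with array weights, 1 with the spread of 27 tumors, 39 with the name block, 36 within names not ending in T, 7 without the pair, and 0 to 13 without 1 tumor. The 255 genes of grade II became 164 after quantile normalization, 511 without dim probe sets, 10 with size, 25 with the tumor moved to grade III, and 7 to 528 without 1 tumor. The interaction called 0 genes under every alternative run. Both the name block and the names not ending in T turned SMARCAL1 to −0.26 and LTBP1 to 0.53. Other probe sets, added after seeing the data, differed in sign for SMARCAL1 (−0.0116), TRMT10A (−0.0193), LARP4 (0.51), TRIM58 (0.0105), LATS1 (0.77), RSPH9 (0.35 and 0.0111), RPA1 (−0.15), SOX6 (0.00926) and LTB (1.09, also its probe set of largest variance). No paired analysis was possible because replicate numbers follow the order of the samples and pair no tumors. The number of arrays limits the precision.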
